A study of Homo sapiens with 8 samples.

Results

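The 9 genes described here are the CXC chemokine genes of the cluster on human chromosome 4: CXCL8, CXCL6, PF4V1, CXCL1, PF4, PPBP, CXCL5, CXCL3 and CXCL2, in chromosome order. They were taken by gene name from a list, with no peak used to pick a gene. The list was drawn up with earlier results of these data known. All 9 matched a gene among 20056 protein-coding genes of the RefSeq table. Chromatin immunoprecipitation with sequencing (ChIP-seq), which maps where a protein sits on DNA, was done with an antibody to NKRF in MDA-MB-231-P3 cells. These are a subline, selected for strong metastasis, of the human breast cancer line MDA-MB-231, which lacks hormone receptors and HER2 amplification. One group received a control siRNA. The other received si-Uc003xsl.1, an siRNA directed at Uc003xsl.1, a long RNA that encodes no protein. The siRNA was delivered with Lipofectamine, per the labels' protocols, and both groups are the same subline. Each group had 2 NKRF libraries with 1 peak list each, and each list was called against an input library. The series names Uc003xsl.1 as a decoy for NKRF acting on the NF-kB and IL8 axis, and IL8 is the product of CXCL8, so the locus holds the gene that the study is about. The NKRF libraries held 8250475 to 19335431 tags after filtering. Control replicate 2 stands apart, with the fewest tags and with its peaks called by another version of the MACS peak caller at another threshold. In control replicate 1 the caller's median false discovery rate was 100%, against 30.75% and 10.96% in si-Uc003xsl.1 replicates 1 and 2. The level of Uc003xsl.1 and the identity of the cells could not be checked, because no expression values were analysed here.

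Chemokines of the CXC family are small secreted proteins that direct migrating cells through receptors of the CXCR class. CXCL8, CXCL6, CXCL1, PPBP, CXCL5, CXCL3 and CXCL2 attract neutrophils through CXCR2, and CXCL8 and CXCL6 also act through CXCR1. PF4 and its close copy PF4V1 encode platelet factor proteins that bind heparin and restrain vessel growth. NF-kB activates CXCL8 through a kB site just upstream of its transcription start. NKRF, the NF-kB repressing factor, is known to bind a negative regulatory element there that overlaps the kB site.

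The upstream sequences show where the called peaks stand against these elements, and are given here for the 3 genes on which the results turn. RefSeq promoter windows (GRCh38.p14), each running from 250 bases before to 50 bases after a start site, matched 8 of the 9 genes by symbol. PF4 was the gene without a window, so its strand, start site and motifs are not given here. The 250 bases upstream of CXCL8 at chr4:73740319-73740568, plus strand, are printed with the kB motif GGANNTTCC and the negative regulatory core TTCCTCTGA together in capitals. Those of CXCL6 at chr4:73836428-73836677, plus strand, carry in capitals the 28 bases under the one peak of any list that reached such a window. For CXCL5, at chr4:73998678-73998927, minus strand, the capitals mark the kB motif.
CXCL8: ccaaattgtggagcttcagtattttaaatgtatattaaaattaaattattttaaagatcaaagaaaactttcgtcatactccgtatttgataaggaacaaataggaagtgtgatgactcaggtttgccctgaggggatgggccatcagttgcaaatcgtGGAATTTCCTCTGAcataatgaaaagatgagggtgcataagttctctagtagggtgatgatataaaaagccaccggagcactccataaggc
CXCL6: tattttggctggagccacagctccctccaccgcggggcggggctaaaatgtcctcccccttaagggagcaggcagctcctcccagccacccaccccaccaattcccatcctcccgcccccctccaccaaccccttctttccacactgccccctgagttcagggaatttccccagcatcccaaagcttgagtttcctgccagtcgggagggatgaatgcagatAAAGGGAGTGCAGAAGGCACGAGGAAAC
CXCL5: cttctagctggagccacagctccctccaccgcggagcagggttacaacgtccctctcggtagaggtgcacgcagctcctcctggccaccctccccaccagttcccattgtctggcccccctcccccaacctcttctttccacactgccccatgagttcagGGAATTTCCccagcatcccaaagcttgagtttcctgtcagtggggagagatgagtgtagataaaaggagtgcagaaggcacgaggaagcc

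The kB motif was present in 6 of the 8 windows, in CXCL8, CXCL6, CXCL1, CXCL5, CXCL3 and CXCL2, against 4.56% of all 35116 promoter windows. All 6 carried the same 9 letters, which match the motif on both strands. They are given here with 10 bases on either side, the motif in capitals, to let the surroundings be compared.
CXCL8: tgcaaatcgtGGAATTTCCtctgacataa
CXCL6: ctgagttcagGGAATTTCCccagcatccc
CXCL5: atgagttcagGGAATTTCCccagcatccc
CXCL1: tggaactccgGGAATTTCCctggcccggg
CXCL3: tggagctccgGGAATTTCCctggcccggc
CXCL2: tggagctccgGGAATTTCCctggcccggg
The motif began 91 bases upstream of the start site of CXCL8, 89 upstream of CXCL6, 90 upstream of CXCL5, 78 upstream of CXCL1 and of CXCL3, and 77 upstream of CXCL2. The negative regulatory core, searched on both strands, was found in 1 of the 8 windows, that of CXCL8, and in 0.507% of all windows. In CXCL8 it shared 4 bases with the kB motif. Neither motif was found in the windows of PF4V1 and PPBP, which says only that these letters are not there.

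Several of these promoters are copies of each other. In a global alignment the 250 upstream bases of CXCL6 and CXCL5 had the same base in 85.3% of 251 aligned columns, with an identical run of 45 bases. CXCL1 and CXCL3 had it in 81.4% of 258 columns, and CXCL1 and CXCL2 in 70.4% of 257 with an identical run of 42 bases. CXCL3 and CXCL2 had it in 73.3% of 266 columns, with an identical run of 37 bases. The highest of the remaining pairs was PF4V1 and PPBP, at 54% of 272 columns. These runs are shorter than the 50-bp tags of 3 libraries and the 105-bp tags of the other. Sequence inside the genes was not aligned. The peaks in PF4 and CXCL5 and 292 of the 320 bases of the peak at CXCL6, described below, lie there. How tags that match more than 1 copy were placed is not given in the sources used here, so a peak at one copy may hold tags of another, which was not tested.

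Across the cluster and 100 kb on each side, 558.6 kb in all, the 4 lists held 7 NKRF peaks, and none of them overlapped a peak of another list. Control replicate 1 had 0 of its 7444 peaks there and control replicate 2 had 1 of 902. After si-Uc003xsl.1 it was 4 of 7577 peaks in replicate 1 and 2 of 4463 in replicate 2. The map of the cluster shows the 7 peaks against the genes. The closest pair from different lists, one between PPBP and CXCL5 and the other inside CXCL5, stood 4.38 kb apart. All 7 were narrow, from 150 bp to 320 bp, and low, from 7 to 13 tags in the 2 si-Uc003xsl.1 lists and a pileup of 7 (overlapping fragments at the summit) in control replicate 2. Of the 7 peaks, 3 overlapped a chemokine gene and 4 lay between genes. RefSeq exons were not used here, so positions are given relative to gene ends only.

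**Figure D1:**
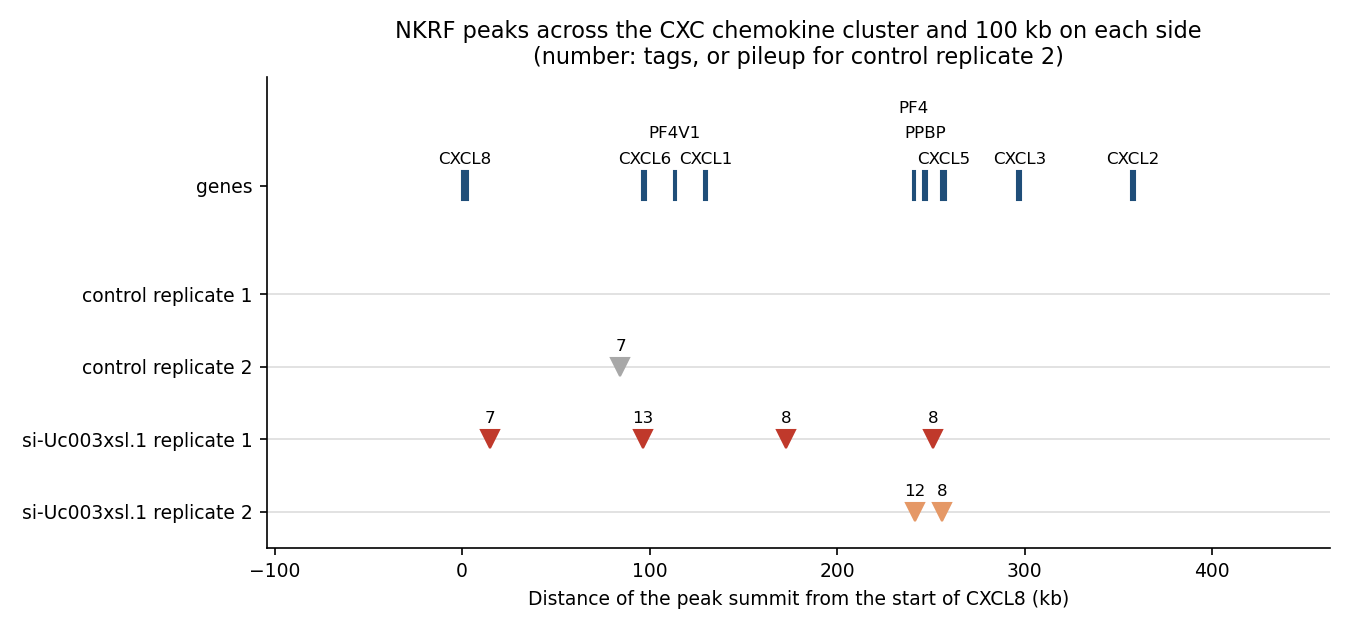
NKRF peaks in each library (triangles at the summit, with the number of tags, or the pileup for control replicate 2) along the cluster, as distance from the start of CXCL8 in kb, with the 9 genes as blocks above. Control replicate 1 has no peak in the 558.6 kb shown, and the 4 and 2 peaks after si-Uc003xsl.1 lie at different places in the 2 libraries.

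CXCL8 encodes IL8, the chemokine of the study's title. Its nearest peak was 297 kb upstream in control replicate 1 and 81.1 kb downstream in control replicate 2. In si-Uc003xsl.1 replicate 1 it lay 11.4 kb downstream of the gene, at 73755142 to 73755295, 154 bp long with 7 tags. In si-Uc003xsl.1 replicate 2 it was 238 kb downstream, inside another member, PF4. The groups overlapped, since si-Uc003xsl.1 replicate 1 was closer and replicate 2 farther than control replicate 2. With equal lists of 902 peaks the peak downstream of CXCL8 was not kept, and the distance of 92.9 kb in si-Uc003xsl.1 replicate 1 was then also farther than the 81.1 kb of control replicate 2. The kB motif and negative regulatory core printed above stood 14.7 kb from the closest peak of any list.

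CXCL6 encodes granulocyte chemotactic protein 2. In si-Uc003xsl.1 replicate 1 a peak of 320 bp with 13 tags, at 73836650 to 73836969, spanned its start site. It covered 28 bases upstream and 292 bases of the gene, with the summit 172 bp downstream of the start. The kB motif of CXCL6 lay outside it, 53 bp from its edge. The nearest peak was 393 kb away in control replicate 1, 11.7 kb upstream in control replicate 2 (73824826 to 73824975, 150 bp, pileup 7) and 143 kb away in si-Uc003xsl.1 replicate 2. So 1 of the 4 libraries had a peak at the CXCL6 promoter, and the other si-Uc003xsl.1 library was farther from the gene than control replicate 2.

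PF4V1 and CXCL1, which follow CXCL6 on the chromosome, had no peak of their own. CXCL1 encodes the growth-related chemokine GRO-alpha. For PF4V1 the distances were 409 kb (control replicate 1), 28.3 kb (control replicate 2), 16.3 kb (si-Uc003xsl.1 replicate 1) and 127 kb (si-Uc003xsl.1 replicate 2). For CXCL1 they were 412, 44.4, 32.4 and 110 kb in the same order. For both genes the closest peak of si-Uc003xsl.1 replicate 1 was that at CXCL6, and the groups overlapped. A further peak of that library, at 73913214 to 73913373 with 8 tags and 160 bp, lay 41.9 kb beyond CXCL1, in the 109.5 kb gap before PF4. Its nearest gene of any type was the pseudogene HNRNPA1P55, at 24.9 kb.

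PF4, PPBP and CXCL5 lie next to each other and were the one stretch of the cluster with a peak of both si-Uc003xsl.1 libraries within 10 kb. The share of all protein-coding genes within 10 kb of a peak in both libraries was not counted. In replicate 2 a peak of 215 bp with 12 tags lay wholly inside PF4, the platelet factor 4 gene, at 73981732 to 73981946. Its summit was 269 bp from the upper end of the gene, whose start site was not placed here. In replicate 1 the peak nearest PF4 was 9.41 kb away. That peak, at 73991535 to 73991725 with 191 bp and 8 tags, stood between PPBP and CXCL5. It was 3.35 kb upstream of PPBP, which encodes the precursor of the platelet chemokine NAP-2, and 3.92 kb downstream of CXCL5. For PPBP replicate 2 gave 4.49 kb, to the peak in PF4. In CXCL5, which encodes the epithelial neutrophil attractant ENA-78, replicate 2 had a peak of 183 bp with 8 tags at 73996104 to 73996286. It was wholly inside the gene, with the summit 2450 bp downstream of the start site. Control distances for PF4, PPBP and CXCL5 were 301, 295 and 284 kb in replicate 1 and 156, 161 and 171 kb in replicate 2. Both si-Uc003xsl.1 libraries were thus closer than both controls at all 3 genes. The medians of all protein-coding genes had the same order, 73.22 and 131.9 kb after si-Uc003xsl.1 against 280.4 and 1318 kb in controls. The share of all genes with this order was not counted, so it is not shown to be particular to the cluster. With equal lists of 902 peaks, si-Uc003xsl.1 replicate 1 lost its peak between PPBP and CXCL5, and its distances became 143.8, 149.5 and 158.7 kb. These were only slightly below the 155.8, 161.5 and 170.7 kb of control replicate 2, while control replicate 1 moved to 1087.7, 1093.4 and 1102.6 kb. The 3 genes share their peaks, so this is a pattern of 1 locus rather than of 3 genes, and no peak coincided in the 2 libraries. PF4V1 is a near copy of PF4, and whether tags of one were placed at the other was not tested.

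CXCL3 and CXCL2 encode GRO-gamma and GRO-beta and lie at the far end of the cluster, with no peak of any list within 40 kb. For CXCL3 the distances were 244 and 212 kb in control replicates 1 and 2 and 44.9 and 40.3 kb after si-Uc003xsl.1. For CXCL2 they were 184 and 272 kb in controls and 105 and 101 kb after si-Uc003xsl.1. The groups did not overlap at either gene, an order that the medians of all protein-coding genes also had. Here too the share of all genes with this order was not counted. The si-Uc003xsl.1 peaks that set these distances are those between PPBP and CXCL5 and in CXCL5. With equal lists, the distances of si-Uc003xsl.1 replicate 1 became 199.6 kb for CXCL3 and 260.1 kb for CXCL2. Those of control replicate 2 stayed at 211.6 and 272.1 kb, and those of control replicate 1 became 1143.5 and 1204.0 kb. In the full lists, the 5 genes from PF4 to CXCL2 therefore have the same order of groups from 2 si-Uc003xsl.1 peaks near CXCL5 and 1 in PF4. This order is not shown to be particular to these genes.

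**Figure D2:**
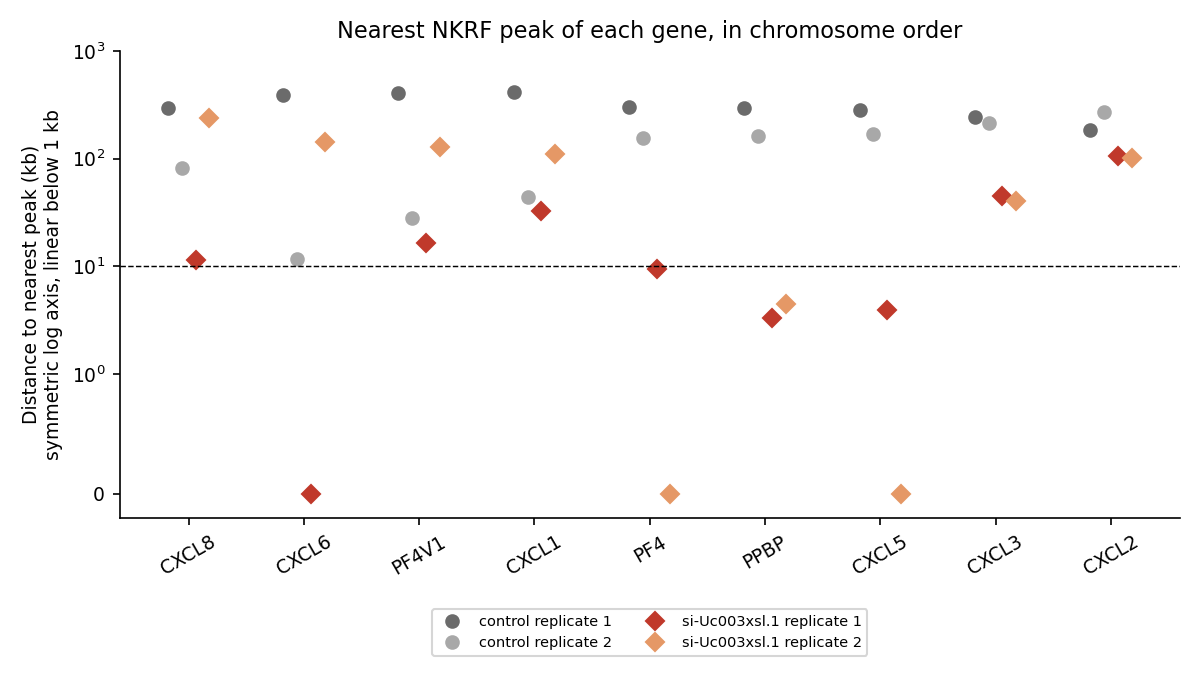
Distance in kb from each gene to its nearest NKRF peak in each of the 4 libraries (points; symmetric log axis, 0 where a peak overlaps the gene), with a dashed line at 10 kb. From PF4 to CXCL2 both si-Uc003xsl.1 libraries lie below both controls, whereas from CXCL8 to CXCL1 the groups overlap. The median distances of all protein-coding genes also lie lower in both si-Uc003xsl.1 libraries than in both controls. The share of all genes with this order was not counted.

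Counted within 10 kb of a gene, 0 of the 9 chemokine genes had a peak in control replicate 1, where 11.8% of all protein-coding genes did, and 0 of 9 in control replicate 2, where 2.58% did. In si-Uc003xsl.1 replicate 1 it was 4 of 9, namely CXCL6, PF4, PPBP and CXCL5, against 23.1% of all genes. In si-Uc003xsl.1 replicate 2 it was 3 of 9, namely PF4, PPBP and CXCL5, against 17.2%. These 4 and 3 genes had 2 different nearest peaks in each library, so the counts overstate the number of separate sites. With equal list lengths of 902 peaks, 1 gene, CXCL6, was left in si-Uc003xsl.1 replicate 1 and 3 in replicate 2. The share of all genes was not counted for these shorter lists, and the percents above belong to the full lists. The other 5 members, CXCL8, PF4V1, CXCL1, CXCL3 and CXCL2, had no peak within 10 kb in any list. Within 50 kb the counts were 0 and 3 of 9 for the 2 control libraries and 8 and 4 of 9 for si-Uc003xsl.1 replicates 1 and 2, against 19.9%, 4.84%, 42.1% and 31.3% of all genes.

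The median distance over the 9 genes was 296.6 kb in control replicate 1, where the median of all protein-coding genes was 280.4 kb. In control replicate 2 it was 155.8 kb against 1318 kb, set for all 9 genes by the single peak upstream of CXCL6. After si-Uc003xsl.1 it was 11.43 kb against 73.22 kb in replicate 1 and 100.8 kb against 131.9 kb in replicate 2. For CXCL8, 51.4% of all genes were at most as far from a peak in control replicate 1 and 63.8% in si-Uc003xsl.1 replicate 2. In control replicate 2 and si-Uc003xsl.1 replicate 1 the shares were 6.46% and 24.0%. The members are neighbours, and these medians are a description of 1 locus with no test.

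**Figure D3:**
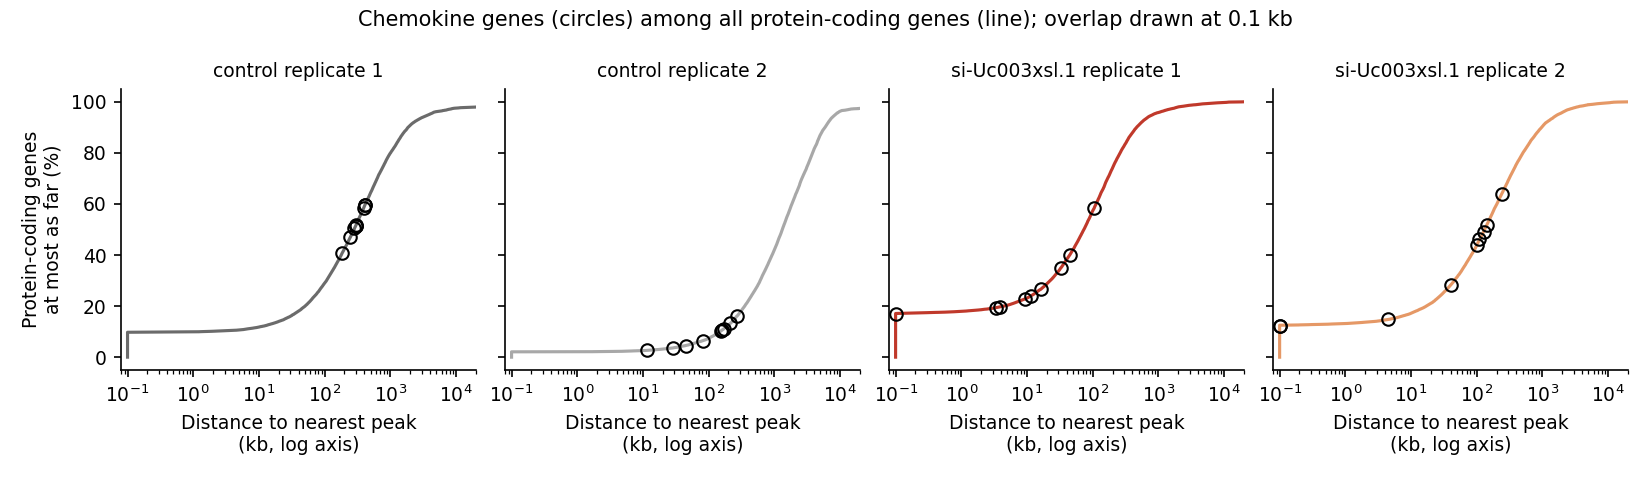
Share of protein-coding genes (%, lines) whose nearest peak is at most as far as the distance on the log axis (kb), in each library, with the 9 chemokine genes as circles and overlapping peaks drawn at the left edge. In control replicate 1 the circles lie between 40.7% and 59.7% of genes, and in control replicate 2 between 2.70% and 16.2%.

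Within their own lists the 7 cluster peaks ranged from weak to fairly strong, by the authors' deposited values. The peak at the CXCL6 start site had 13 tags, with 79.2% of its list at or below that, a length at or above 82.7% of the list, and a -log10 p of 5.55 at or above 88.9%. The peaks in PF4 and CXCL5 had -log10 p of 5.96 and 6.10, at or above 89.98% and 91.6% of theirs. That in CXCL5 had a fold over input of 17.1, at or above 93.1% of the list, on 8 tags. The peak downstream of CXCL8 was weaker, with a -log10 p of 4.22 at or above 33.4% of the list and a fold of 7.98. The one between PPBP and CXCL5 had the lowest -log10 p of the 6 peaks after si-Uc003xsl.1, 4.09, at or above 13.4%. The caller's false discovery rates were 28.6% to 31.2% for the 4 peaks of si-Uc003xsl.1 replicate 1, and 15.4% and 17.6% for the peaks in PF4 and CXCL5, so none reached 5%. The peak of control replicate 2 near CXCL6 had a -log10 q of 2.69. Outside the 100 kb limit, the closest peaks were 82.2 kb before it in si-Uc003xsl.1 replicate 1 (7 tags) and 84.0 kb after it in control replicate 1 (7 tags). The latter lay inside MTHFD2L, a folate enzyme gene and the one other protein-coding gene reaching into the window.

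**Figure D4:**
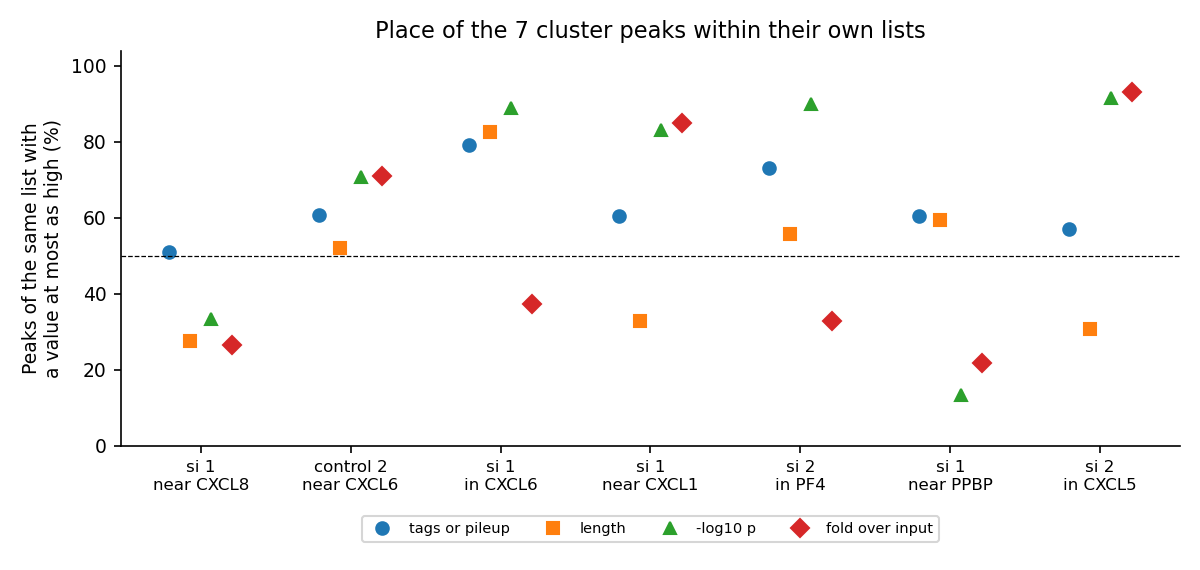
For each of the 7 cluster peaks, in chromosome order, the share of peaks of the same list (%) with a value at most as high, for tags or pileup, length, -log10 p and fold over input (si 1 and si 2 are the si-Uc003xsl.1 replicates, control 2 is control replicate 2). By -log10 p, the peaks in CXCL6, PF4 and CXCL5 stand at 88.9%, 89.98% and 91.6%, and those near CXCL8 and PPBP at 33.4% and 13.4%.

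The control libraries had a mean of 0.5 ± 0.71 (SD, n = 2) peaks in the window and the si-Uc003xsl.1 libraries 3.0 ± 1.41 (SD, n = 2). Both si-Uc003xsl.1 libraries were above both controls, and the two-sided exact permutation p was 0.333, the smallest that 2 libraries per group allow. With equal lists of 902 peaks this separation was lost, with 0 and 1 peaks in the controls and 1 and 2 after si-Uc003xsl.1, so that the difference of 2.5 peaks became 1.0 (exact permutation p = 0.667). As a share of each list the order did not hold. It was 0% in control replicate 1 (0 of 7444, which allows up to 0.0403% by 3 counts; exact Clopper-Pearson 95% interval 0 to 0.0495), 0.111% in control replicate 2 (0.00281 to 0.616), 0.0528% in si-Uc003xsl.1 replicate 1 (0.0144 to 0.135) and 0.0448% in replicate 2 (0.00543 to 0.162). The means were 0.0554% ± 0.0784 (SD, n = 2) and 0.0488% ± 0.0056 (SD, n = 2). They differed by -0.0066 percentage points, less than the spread between the controls, with a two-sided exact permutation p of 1. Without control replicate 2 the difference was 0.0488 points, and without control replicate 1 it was -0.0621, so its direction rests on which control library is used. Calling and library cannot be told apart in the control group.

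CXC ligands outside the cluster lay within 10 kb of a peak about as often as all genes, and more of them did so within 50 kb after si-Uc003xsl.1. Of 8 such ligands, 1 (12.5%) lay within 10 kb of a peak in control replicate 1 against 11.8% of all genes, and 0 in control replicate 2 against 2.58%. It was 2 (25%) in si-Uc003xsl.1 replicate 1 against 23.1%, and 1 (12.5%) in replicate 2 against 17.2%. Within 50 kb it was 1 and 0 of 8 in control replicates 1 and 2, against 19.9% and 4.84% of all genes. It was 7 of 8 in si-Uc003xsl.1 replicate 1 against 42.1%, and 5 of 8 in replicate 2 against 31.3%. In each si-Uc003xsl.1 library CXCL9, CXCL10 and CXCL11 shared their nearest peak, so these counts overstate the number of separate sites. CXCL16 was counted in replicate 1 at 49953 bp, just under the limit. Median distances of the 8 ligands in the si-Uc003xsl.1 libraries were 26.74 and 32.48 kb, where those of the 9 cluster genes were 11.43 and 100.8 kb. CXCL13, a B-cell attractant, held one in control replicate 1 (77582239 to 77582382, 6 tags) and another in si-Uc003xsl.1 replicate 1 (77594769 to 77594922, 6 tags). CXCL11, an interferon-induced ligand of CXCR3, held one of 8 tags in si-Uc003xsl.1 replicate 1, and CXCL12, the ligand of CXCR4, one of 7 tags in si-Uc003xsl.1 replicate 2. Of 8 receptors, among them CXCR1 and CXCR2, 1 (12.5%) was within 10 kb of a peak of control replicate 1, against 11.8% of all genes. This was ACKR1, a scavenging receptor, 9.63 kb from a peak with 7 tags. The count was 0 in control replicate 2 against 2.58%, and 0 in si-Uc003xsl.1 replicates 1 and 2 against 23.1% and 17.2%. After si-Uc003xsl.1 no receptor had a peak within 50 kb in either library, against 42.1% and 31.3% of all genes. CXCR1 and CXCR2 shared their nearest peak in every list.

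Of 8 genes of factors that act at the CXCL8 promoter, 1 (12.5%) was within 10 kb of a peak of control replicate 1, against 11.8% of all genes. In si-Uc003xsl.1 replicate 1 it was 3 (37.5%) against 23.1%. The count was 0 in control replicate 2 against 2.58%, and 0 in si-Uc003xsl.1 replicate 2 against 17.2%. NFKB1, the gene of the p50 subunit of NF-kB, contained a peak of 8 tags in control replicate 1 and one of 25 tags and 345 bp in si-Uc003xsl.1 replicate 1, which did not overlap. POU2F1, which encodes the octamer-binding factor Oct-1, contained a peak of 6 tags in si-Uc003xsl.1 replicate 1. HDAC1, a histone deacetylase gene, lay 2.05 kb from one of 23 tags in the same library. The 14 CC chemokine genes of chromosome 17 had 0 members within 10 kb or 50 kb of a peak in each of the 4 lists. Within 10 kb, 11.8% and 2.58% of all genes had one in control replicates 1 and 2, and 23.1% and 17.2% in si-Uc003xsl.1 replicates 1 and 2. Within 50 kb, 19.9% and 4.84% of all genes had one in control replicates 1 and 2, and 42.1% and 31.3% in si-Uc003xsl.1 replicates 1 and 2. They spread wider than the 358.6 kb of the chromosome 4 cluster, with CCL1 and CCL5 at 2150 and 636 kb from the same peak of control replicate 2. Neighbours among them shared nearest peaks, so they are not 14 separate sites. The nearest peak to any of these 14 genes was at 129.9 kb, in si-Uc003xsl.1 replicate 1. Within 10 kb in si-Uc003xsl.1 replicates 1 and 2, the 44.4% and 33.3% of the chromosome 4 cluster stand beside 23.1% and 17.2% of all genes. The other CXC ligands had 25% and 12.5%, and the promoter factors 37.5% and 0%. The CXC receptors and the CC cluster had 0% in both. These differences were not tested.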

How the data were processed

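The members and gene lists were chosen with earlier results of these data known. Per the submitters' processing notes, Bowtie2 and CASAVA 1.4 were used and the genome build was GRCh38.p11. Peaks came from MACS 1.4.2 (p threshold 1e-04, 50-bp tags) in 3 libraries, per the file headers, and from MACS 2.1.1.20160309 (q threshold 0.05, 105-bp tags) in control replicate 2. Each library was called alone against 1 input. The authors deposited tag counts per peak without normalization, a score of -10 times log10 p, fold enrichment over input as a ratio, and a false discovery rate as a percent. The list of control replicate 2, as deposited, gives the pileup signal, the fold, and -log10 of p and q. Peak values are the authors' and were not rescaled.

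With Python 3.11.15, pandas 2.3.3 and scipy 1.17.1, the distance from each protein-coding gene to the nearest edge of a peak was computed, 0 meaning overlap. Genes came from RefSeq on GRCh38.p14, and primary chromosomes keep their coordinates between patch releases. Strand came from the RefSeq promoter windows. The distance step was checked on simulated peaks. Percent of genes near a peak is over all 20056 protein-coding genes. Upstream sequences were aligned with Biopython 1.88 (match 1, mismatch -1, gap opening -3, extension -1). Named genes are the 9 members, the protein-coding genes of the window, and the list genes within 10 kb of a peak. Replicates are libraries. The labels do not say whether they came from separate cultures, so p-values measure only the spread between libraries. Intervals cover counting error only. Input libraries were used only through the headers. Protein sequences were not used here.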

Additional observations from a re-analysis of the deposited data

How the results depend on the processing

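The difference in the share of each list's peaks that lay in the window, si-Uc003xsl.1 minus control, turned from negative to positive without the peaks at the smallest tag count or pileup (0.0139 percentage points) and with equal lists of 902 peaks (0.111). Leaving out one library gave -0.0621 to 0.0488. It stayed negative with flanks of 50 and 200 kb. The difference in the number of peaks stayed positive under every alternative run, from 1.0 with equal lists (exact permutation p = 0.667) to 3.5 without si-Uc003xsl.1 replicate 2, and 0.133 peaks per 1000000 filtered tags. With the replicate number as a replicate block the differences were -0.0066 points and 2.5 peaks, with exact sign-flip p of 1 and 0.5, the latter the smallest possible. The labels share numbers only, and whether the numbers pair libraries was not tested. The count of 4 members within 10 kb in si-Uc003xsl.1 replicate 1 was 1 within 1 kb, 8 within 50 kb and 1 with equal lists, and the count of 0 in control replicate 2 was 3 within 50 kb. The shares of all genes within 1 kb and with equal lists were not counted. Of 36 nearest distances, 15 moved by over 1.5 times with equal lists, 9 of them in control replicate 1 and the other 6 in si-Uc003xsl.1 replicate 1, at CXCL8, PF4, PPBP, CXCL5, CXCL3 and CXCL2. With a flank of 200 kb the difference in number was 2.0 (exact permutation p = 0.667). A list of called peaks holds no signal below the caller's threshold, so binding at CXCL8 was not detected at this depth, which does not show that it was absent.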
